A study of Mus musculus with 10 samples.

Results

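The 90 nuclear genes of oxidative phosphorylation described here were measured in Ly6Chigh monocytes of the mouse spleen. They are the genes whose symbols begin with Ndufa, Ndufb, Ndufc, Ndufs, Ndufv, Uqcr, Cox4, Cox5, Cox6, Cox7, Cox8 or Atp5, together with Sdha, Sdhb, Sdhc, Sdhd and Cyc1, at 1 TPM (a gene's share of the library's transcripts, corrected for transcript length) or more in at least 3 of 10 libraries. Of 93 symbols that matched, Cox7b2, Cox8c and Ndufa4l2 were listed at 0 in every library and were left out. The 90 members stand among 12938 genes that passed the same filter, of 24421 symbols in the tables. By their known place in the chain, 36 belong to complex I, 4 to complex II, 9 to complex III, 17 to complex IV and 15 to complex V. The other 9 (7 Ndufaf genes, Atp5s and Atp5sl) match by name but encode assembly or coupling factors and no subunits. Ndufa4 was counted with complex IV, where the protein resides.

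Spleens were taken on day 5 after surgery from male mice between 8 and 10 weeks old. WT mice of the C57BL/6 strain underwent sham surgery, a thoracotomy without ligation (WT sham, 3 libraries), or permanent ligation of the left anterior descending artery, which causes myocardial infarction (WT MI, 3 libraries). In Foxp3DTR mice the Foxp3 promoter drives a human receptor for diphtheria toxin, which makes regulatory T-cells (Tregs) sensitive to injected toxin, and these mice were studied after ligation (Foxp3DTR MI, 4 libraries). Toxin was injected before surgery and again after it. The WT mice set against Foxp3DTR mice after infarction are described by the study as toxin-treated, which the labels do not state for the WT MI libraries, and no toxin is named for WT sham. In comparisons with WT sham, genotype, Treg loss, toxin and surgery cannot be told apart. Monocytes were sorted as CD11b+ Ly6G- F4/80+ Ly6Chigh CD115+ cells after depletion of T- and B-cells, and libraries were made from 20 to 50 pg of RNA. Each library was taken as a separate mouse, which the labels do not state, so that p-values measure only the spread between these libraries.

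Oxidative phosphorylation is carried out by protein complexes in the inner mitochondrial membrane. Complex I oxidises NADH and complex II oxidises succinate, complex III passes the electrons from ubiquinol to cytochrome c, and complex IV passes them to oxygen. Complexes I, III and IV pump protons, and complex V, the ATP synthase, uses the gradient to make ATP. Most subunits are encoded in the nucleus, and a smaller set in the mitochondrial genome. In myeloid cells the balance between this chain and glycolysis is known to shift with activation. The 13 mitochondrially encoded subunits have no entry in the tables and are not analysed here.

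The depth inferred from the tables ranged from 3.13 M reads (sham replicate 2) to 8.40 M (WT MI replicate 3). Monocyte markers such as Ly6c2, Ccr2, Csf1r and Itgam were present in all 10 libraries. Ly6c2 was at 3227 to 5028 scaled TPM in Foxp3DTR MI and 2160 to 3141 in WT MI and Csf1r at up to 609 against 691 to 766, both without overlap, and their part in the results was not tested. Levels below are scaled TPM, the deposited TPM divided by a library factor of 0.856 to 1.14 that sets the median gene level across libraries, and they can be compared between genes because TPM is per transcript length. The scaling matters for these genes. Without it, the median of all genes was 0.22 higher in Foxp3DTR MI than in WT MI and 0.17 lower in WT MI than in WT sham on the log2 scale, so every change is given relative to the median gene. The 10 most abundant RNAs took 24.8 to 30.3% of TPM in WT MI and 17.3 to 23.0% in Foxp3DTR MI, without overlap.

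Nuclear respiratory factor 1 (NRF1) is a known regulator of respiratory chain genes, and its motif was searched here as GCGC, any base, then TGCGC. A promoter window from 250 bases before to 50 bases after the start (RefSeq, GRCm38.p6) was found for 75 of the 90 members. The motif lay on either strand of 19 of these windows (25.3%), of 11.6% of the windows of all tested genes and of 5.19% of all 27025 genes with a window. The following 30-base stretches, with the motif in capitals, are shown because they hold it in members of each complex, among them the 1 gene called different between groups (Ndufa5). Each is written 5′ to 3′ on the strand of its gene.

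Ndufa5 (complex I, chr6:24527697-24527726, minus strand): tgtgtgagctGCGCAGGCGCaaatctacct
Ndufa6 (complex I, chr15:82354249-82354278, minus strand): ccgtggcaccGCGCGTGCGCacgctgaagg
Sdha (complex II, chr13:74350319-74350348, minus strand): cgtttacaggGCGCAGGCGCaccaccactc
Sdha (complex II, chr13:74350276-74350305, minus strand): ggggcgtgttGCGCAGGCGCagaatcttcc
Sdha (complex II, chr13:74350231-74350260, minus strand): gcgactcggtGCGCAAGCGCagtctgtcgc
Uqcrc1 (complex III, chr9:108936643-108936672, plus strand): cttccttacaGCGCTTGCGCctcagactcc
Cox6a1 (complex IV, chr5:115349101-115349130, minus strand): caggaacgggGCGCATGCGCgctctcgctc
Atp5g3 (complex V, chr2:73911295-73911324, minus strand): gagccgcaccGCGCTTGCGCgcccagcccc

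The Ndufa5 motif began 190 bases before the RefSeq start and that of Atp5g3 12 bases after it. Sdha held 3 copies within its window, and Uqcrc1 and Cox6a1 held 2 copies each, of which 1 is shown. A further 9 motifs were searched on both strands. CCGGAAG, bound by ETS factors such as GABP, was in 22.7% of the members' windows against 20.5% of those of tested genes. AAGATGGCG (YY1) was in 10.7% against 3.72%. AAGGTCA, bound by oestrogen-related receptors, was in 10.7% against 4.08%. CCAAT and GGGCGG were each in 44.0% of the members' windows, against 43.1% and 66.1%. TATAAA was in 8.0% (8.81% of tested genes), CACGTG in 9.33% (11.6%), TTCNNNGAA in 6.67% (8.62%) and TGACGTCA in 5.33% (3.59%). CCGGAAG and TTCNNNGAA can share letters. These matches describe letters in a window and show no binding.

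The members were abundant in monocytes. Their mean level over all libraries had a median of 111 scaled TPM, against 21.4 for all tested genes, and 50 of the 90 were above 100. Complex V (median 226 scaled TPM) and complex IV (202) were above complex III (136), complex II (123) and complex I (89.2). The factors were lower, with a median of 10.2. In total the 90 genes held 1.06 to 1.42% of the TPM of a library.

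**Figure D1:**
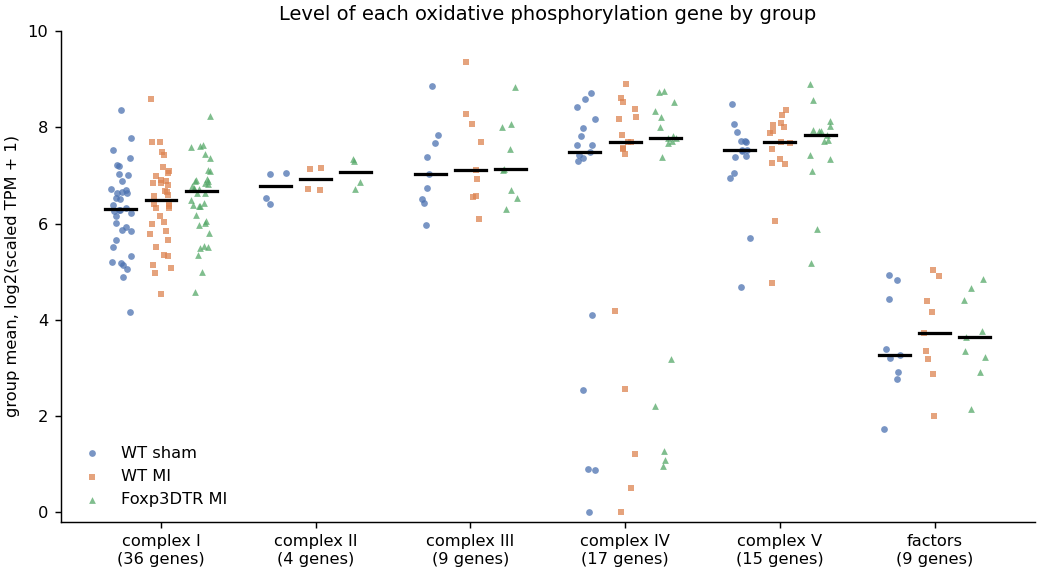
Group means of the 90 members by complex on the scale log2(scaled TPM + 1), with each point a gene, the colour and symbol the group and the black bar the median. In complexes I, III, IV and V the spread between genes is far wider than that between groups, and 5 isoform genes of complex IV lie below 5 on this scale.

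The highest genes of complex I were Ndufa6 (334 scaled TPM over all libraries) and Ndufa3 (197), both small accessory subunits. In complex II they were the iron-sulphur subunit Sdhb (146) and the membrane anchor Sdhd (144). In complex III they were Uqcrh, the hinge protein that binds cytochrome c1 (519), and Uqcr10. Cox4i1, the ubiquitous isoform of subunit 4 (442), and Cox6a1 led complex IV. Atp5b and Atp5a1, the beta and alpha subunits of the catalytic head, led complex V, Atp5b at 399. The lowest subunit of complex I was Ndufa11, which lies in the membrane arm, at 20.9.

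Isoform pairs of complex IV differed by far more than any group did. Cox4i2, the isoform known from lung and hypoxic cells, was listed at 0 in all 3 sham libraries and in WT MI replicates 2 and 3, was at 1.21 scaled TPM in WT MI replicate 4 and reached 1.85 at most in Foxp3DTR MI. Cox6a2, the heart and muscle isoform, was listed at 0 in all 3 WT MI libraries and reached 2.57 at most (sham replicate 3). Cox8b stayed at or below 2.73 and Cox7a1 at or below 6.76, while their counterparts Cox8a and Cox7a2 were at 341 ± 35.7 and 163 ± 41.7 in WT sham (SD, n = 3). Of the isoforms of striated muscle, Cox6a2 and Cox8b were thus at or near 0 in these cells and Cox7a1 was low. Cox4i2 reached 1 TPM in only 4 libraries, Cox6a2 in 3 and Cox8b in 6, and every other member in all 10. No fold change is given for Cox4i2 and Cox6a2, because whole groups are listed at 0. Cox6b2, known as the testis isoform, was the most abundant of the minor isoforms, between 5.45 and 23.1. The 3 genes of the c ring of ATP synthase encode the same mature protein, and Atp5g3 supplied most of their RNA (185 ± 18.1 scaled TPM in WT sham, SD, n = 3), followed by Atp5g2 (51.1 ± 8.41) and Atp5g1 (24.7 ± 2.84).

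Libraries differed in the level of the whole set. Summed over the 36 subunits of complex I, the scaled TPM was 3251, 3457 and 3300 in sham replicates 1, 2 and 3, 4170, 3247 and 3560 in WT MI replicates 2, 3 and 4, and 3641, 3550, 3606 and 4323 in Foxp3DTR MI replicates 1 to 4. On this scale WT MI replicate 2 and Foxp3DTR MI replicate 4 were above all other libraries. The remaining Foxp3DTR MI libraries lay above the sham libraries and overlapped those of WT MI. Of the 90 members, 47 had their highest level in Foxp3DTR MI replicate 4 and 17 in WT MI replicate 2, while 28 and 29 had their lowest in sham replicates 1 and 2. The same pair of libraries led the sums of complexes III, IV and V. In complex II, Foxp3DTR MI replicates 4 (581) and 1 (545) were highest. The sum of the factors was highest in WT MI replicate 4 (145), with 136 in Foxp3DTR MI replicate 4. By median deviation from the gene means the factors were highest in Foxp3DTR MI replicate 4 (0.16 above). On that measure WT MI replicate 2 was at 0.20 below and WT MI replicate 3 at 0.15 above. This order of libraries depended on the scaling. As deposited, the complex I sums were 4137, 4059, 3895 and 4090 in Foxp3DTR MI replicates 1 to 4. The highest WT sum was 3832, in WT MI replicate 2. Sums of complexes II and V as deposited were also higher in every Foxp3DTR MI library than in every WT library, while those of III and IV overlapped. Deposited values include the shift of the median gene.

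**Figure D2:**
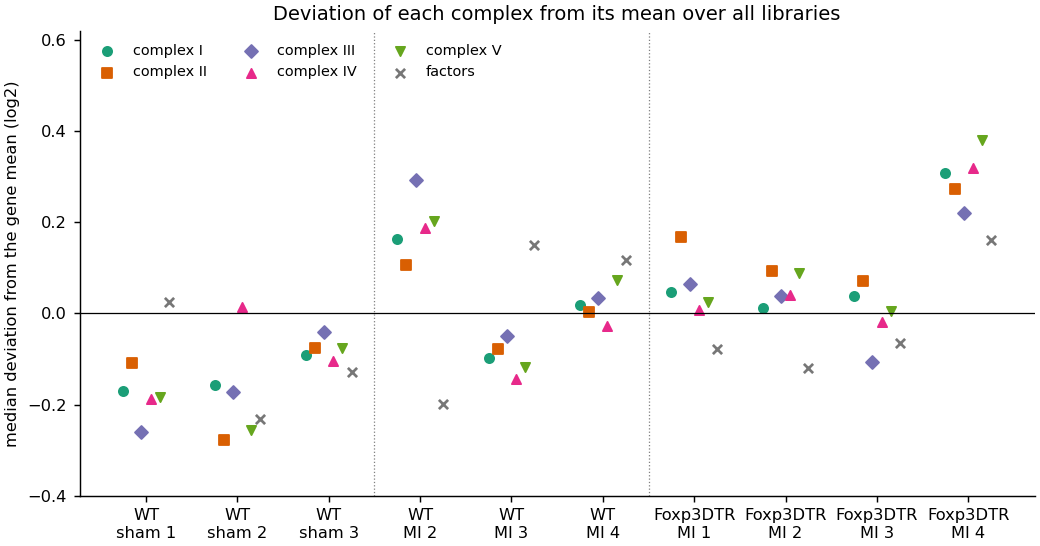
Median deviation of the genes of each complex from their own mean over all 10 libraries, in log2 units, for each library, with dotted lines between WT sham, WT MI and Foxp3DTR MI. All 5 complexes lie above 0.1 in WT MI replicate 2 and above 0.2 in Foxp3DTR MI replicate 4, and all but complex IV in 1 library lie below 0 in the sham libraries.

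The first comparison, Foxp3DTR MI against WT MI, asks what differed with Treg depletion in these monocytes after infarction. Genotype differs between these groups too and cannot be told apart from Treg loss. The same holds for toxin if the WT MI mice had none. Ndufa5, an accessory subunit of the matrix arm of complex I, was the 1 member of 90 called (limma, adjusted p under 0.05), where 1.12% of all tested genes were called, 0.688% of them higher in Foxp3DTR MI. The set as a whole moved little, with a median log2 fold change of 0.05 over the members against 0.00 over all tested genes, and 56 of the 90 values were positive against 50.1% of all genes. Without scaling 82 were positive, with a median of 0.28 against the general shift of 0.22. The sign of the scaled median rested on single libraries, since it was 0.13 without WT MI replicate 2, -0.01 without WT MI replicate 3 and -0.02 without Foxp3DTR MI replicate 4.

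Ndufa5 (mm10, chr6:24518666-24527687, minus strand) was at 33.4, 29.9 and 41.7 scaled TPM in sham replicates 1, 2 and 3, at 34.1, 25.9 and 30.6 in WT MI replicates 2, 3 and 4, and at 57.5, 58.1, 54.1 and 49.6 in Foxp3DTR MI replicates 1 to 4. All 4 Foxp3DTR libraries were above all 6 WT libraries. The means were 54.8 ± 3.90 (SD, n = 4) and 30.2 ± 4.15 (SD, n = 3) after infarction, a log2 fold change of 0.84 (SE 0.14 and adjusted p = 0.0258, limma). The call ended when any 1 of the 3 WT MI or 4 Foxp3DTR MI libraries was left out, with adjusted p between 0.0502 and 0.0899, while the fold change stayed between 0.74 and 0.93.

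Some sums of markers named for other cell types differed between the same groups. The 13 neutrophil markers were S100a8, S100a9, Camp, Ngp, Ltf, Lcn2, Retnlg, Cxcr2, Mmp8, Mmp9, Elane, Mpo and Prtn3. Their summed level was 1246 to 2947 scaled TPM in Foxp3DTR MI and 213 to 601 in WT MI. That of the 9 T-cell markers in the tables (of 11) was 26.3 to 113 against 6.18 to 11.9, and that of 8 NK cell markers 80.0 to 160 against 30.4 to 72.8. None of these ranges overlapped. Sham replicate 3 also had high sums of T-cell (150.0), NK cell (134), neutrophil (1390) and erythroid (208) markers, and its Ndufa5 level of 41.7 was the highest of the WT libraries. The B-cell sum (6 markers) was 6.86 to 12.3 against 11.7 to 14.1, the plasma cell sum (5 markers) 441 to 531 against 392 to 448 and the dendritic cell sum (7 markers) 299.6 to 331 against 328 to 437. The erythroid sum (8 of 9 markers in the tables) was 7.58 to 26.9 against 6.28 to 9.75, with Hbb-bt at 0 throughout. A sum is led by its most abundant genes, and whether monocytes themselves held RNA of these markers was not tested. The part of these markers in the members' levels was not tested, and fewer cells of a type and less RNA per cell cannot be told apart in sorted bulk RNA.

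Other members of complex I lay on both sides. The 7 core subunits of the matrix arm, which hold the flavin and the iron-sulphur clusters, all had positive values, up to 0.35 for Ndufv1, the NADH-binding subunit, with none called. Ndufs1, the largest core subunit, was at 39.9 ± 1.62 scaled TPM in Foxp3DTR MI (SD, n = 4) and 32.6 ± 5.79 in WT MI (SD, n = 3). Among accessory subunits the A series (13 genes) had a median of 0.06, the B series (10 genes) 0.02 and the C, S and V series (6 genes) 0.19. Ndufa12 and Ndufb2, chosen after their values were seen, had log2 fold changes of 0.76 (adjusted p = 0.106) and 0.66 (adjusted p = 0.153). Ndufa12 stood at 117, 112, 88.8 and 98.1 in the Foxp3DTR libraries and 78.1, 62.5 and 45.9 in the WT MI libraries, which did not overlap. Ndufa6, the most abundant subunit of the complex, had a value of -0.34 (adjusted p = 0.271).

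In complex II all 4 subunits had small positive values. Sdhb, the iron-sulphur subunit, was at 162, 154, 159 and 175 scaled TPM in Foxp3DTR MI replicates 1 to 4 and at 154, 121 and 142 in WT MI replicates 2, 3 and 4, a log2 fold change of 0.23 (SE 0.10 and adjusted p = 0.281). The ranges overlapped at their edge, between 153.9 and 154.2. The membrane anchors Sdhc and Sdhd had values of 0.16 and 0.15. Sdha, the flavoprotein that oxidises succinate, was nearly level, at 105 ± 1.03 in Foxp3DTR MI (SD, n = 4) and 104 ± 4.15 in WT MI (SD, n = 3).

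Complex III had a median of -0.04. Uqcrh was at 469, 403, 419 and 545 scaled TPM in Foxp3DTR MI replicates 1 to 4 and at 712, 606 and 646 in WT MI replicates 2, 3 and 4. Every Foxp3DTR library was below every WT MI library, with a log2 fold change of -0.52 (SE 0.14 and adjusted p = 0.100). Without scaling the value was -0.28. Cyc1, cytochrome c1, was at 77.6 ± 3.43 (SD, n = 4) and 67.6 ± 3.14 (SD, n = 3), and its libraries did not overlap either, at a log2 fold change of 0.19 (adjusted p = 0.310). Uqcrfs1, the Rieske iron-sulphur protein, and the core proteins Uqcrc1 and Uqcrc2 had values from -0.14 to 0.13.

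Complex IV had a median of 0.05 over its 17 genes and of -0.02 over the 15 without Cox4i2 and Cox6a2. Cox6b2 was at 10.5, 5.88, 5.45 and 10.4 scaled TPM in Foxp3DTR MI replicates 1 to 4 and at 23.1, 19.1 and 9.11 in WT MI replicates 2, 3 and 4, a log2 fold change of -0.96 (SE 0.33 and adjusted p = 0.175). WT MI replicate 4 lay within the Foxp3DTR range. Cox7a2l, a factor of supercomplexes that resembles subunit 7a, was at 218 ± 39.6 in Foxp3DTR MI (SD, n = 4) and 295 ± 14.1 in WT MI (SD, n = 3), a log2 fold change of -0.46 (adjusted p = 0.169), without overlap. The ubiquitous isoforms Cox4i1, Cox6a1, Cox6b1, Cox7a2, Cox7b and Cox8a ranged from -0.13 (Cox4i1) to 0.35 (Cox7b), and Ndufa4 was at -0.02. Cox7a1 was at -0.32 and Cox8b at 0.10.

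In complex V both subunits of the catalytic head had positive values, and neither was called. Atp5b was at 472, 501, 441 and 508 scaled TPM in Foxp3DTR MI replicates 1 to 4 and at 381, 307 and 302 in WT MI replicates 2, 3 and 4, a log2 fold change of 0.55 (SE 0.16 and adjusted p = 0.121). Atp5a1 was at 376 ± 14.2 (SD, n = 4) and 273 ± 16.5 (SD, n = 3), a log2 fold change of 0.46 (adjusted p = 0.204). Neither gene's Foxp3DTR libraries overlapped those of WT MI. The smaller subunits epsilon, gamma and delta had values of -0.34 (Atp5e), -0.12 (Atp5c1) and -0.01 (Atp5d). Of the c ring genes, Atp5g3 was at 270.0, 240.2, 245 and 368 in the Foxp3DTR libraries and at 240.5, 185 and 194 in the WT MI libraries, a log2 fold change of 0.43 (adjusted p = 0.206) with a slight overlap. Atp5g1 was at 0.40 and Atp5g2 at -0.18. The 4 stalk subunits Atp5f1, Atp5h, Atp5j and Atp5o lay between 0.04 and 0.19.

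By count, 13 members had an unadjusted p under 0.05 (8 higher and 5 lower), which is 14.4% of the members where 17.7% of all tested genes did (9.31% higher and 8.42% lower). Without WT MI replicate 3 there were 7, where 1881 of the 12938 tested genes had such a p. Libraries of the groups did not overlap for 9 members that were higher (9.97% of all genes) and 2 that were lower (9.02%). Among the 9 was Cox6a2, at 0 throughout WT MI. With all libraries, the share of members that were higher was close to that of all genes on each of these counts, and the share that were lower was below it.

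**Figure D3:**
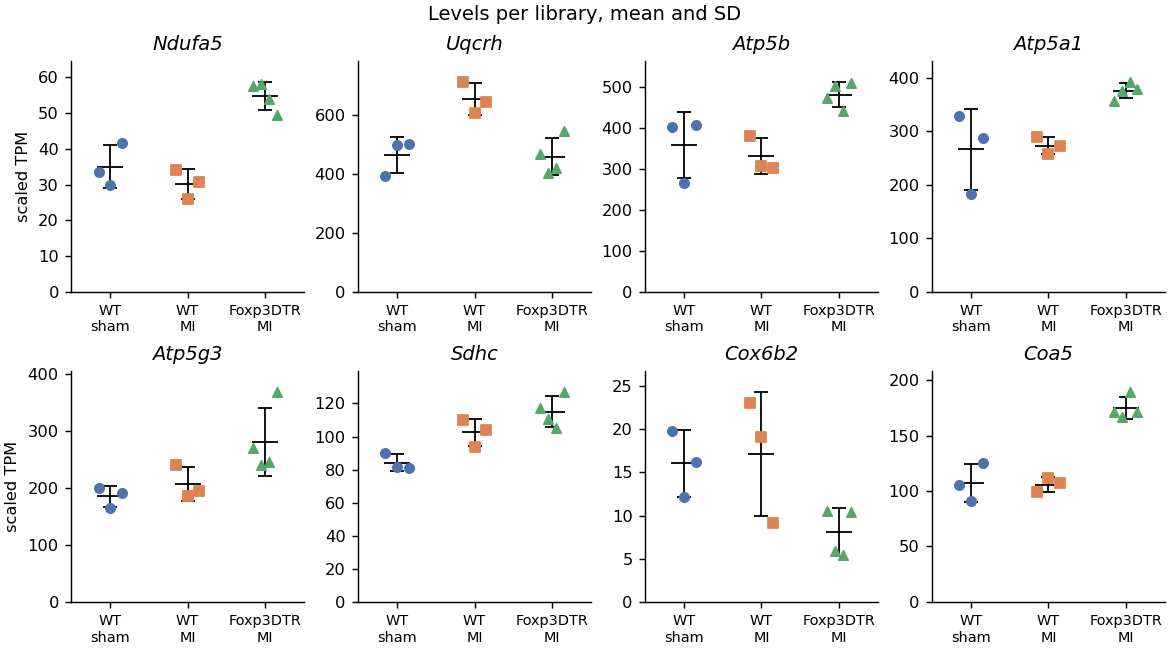
Scaled TPM of 7 members and of the assembly factor Coa5 in each library, with the mean and SD of each group as bars and all axes starting at 0. Ndufa5 and Coa5 lie higher in the 4 Foxp3DTR MI libraries than in all 6 WT libraries, and Uqcrh lies higher in the 3 WT MI libraries than in all 7 others.

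The second comparison, WT MI against WT sham, asks what differed after infarction in WT mice. A difference in toxin treatment, if there was one, cannot be told apart from that in surgery. None of the 90 members was called (limma, lowest adjusted p = 0.960), as 0% of all tested genes were. An unadjusted p under 0.05 was reached by 12 members, all with higher levels after infarction, where 2.20% of all tested genes reached it on that side, 2.44% on the lower side and 4.64% on either. Without WT MI replicate 2, 4 of the 90 members reached it in either direction, where 639 of the 12938 tested genes did. The share of members was then near that of all genes. The libraries of 15 members did not overlap, all higher after infarction, where 3.18% of all genes were higher without overlap, 3.73% lower and 6.91% either. The median log2 fold change was 0.17 over the members and 0.00 over all tested genes, and 75 of the 90 values were positive against 49.6% of all genes. Without scaling 42 were positive and the median was -0.01, where the median of all genes was -0.17, so that the members lay above the median gene on both scales. Without WT MI replicate 2 the scaled median was 0.12.

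The complexes had similar medians here, 0.17 in complexes I, III, IV and V and 0.15 in complex II. Uqcrh was at 394, 499.6 and 501 scaled TPM in sham replicates 1, 2 and 3, below the 712, 606 and 646 of WT MI, a log2 fold change of 0.50 (SE 0.15 and adjusted p = 0.960). All 9 subunits of complex III had positive values. The level of Uqcrh in Foxp3DTR MI (459 ± 63.6, SD, n = 4) was close to that of WT sham (465 ± 61.5, SD, n = 3), and both of its differences rest on the same 3 WT MI libraries. Ndufaf2, an assembly factor of complex I, was at 8.32, 6.07 and 10.1 after sham surgery and at 16.7, 17.2 and 17.1 after infarction, a log2 fold change of 1.00 (SE 0.27 and adjusted p = 0.960). Its level was low in every library and spread from 7.78 to 18.2 in Foxp3DTR MI.

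Sdhc, an anchor of complex II, stood at 84.1 ± 5.04 and 103 ± 7.99 (SD, n = 3 each), a value of 0.28 with no overlap. Sdha, Sdhb and Sdhd were at 0.18, 0.08 and 0.13, and Cyc1 at 0.14. On the lower side were Ndufa3, with a log2 fold change of -0.30 (adjusted p = 0.960), and Ndufa5 at -0.20, both with overlapping libraries. Among isoforms Cox7a2l was at 0.40, and Cox6b2 at 0.02.

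**Figure D4:**
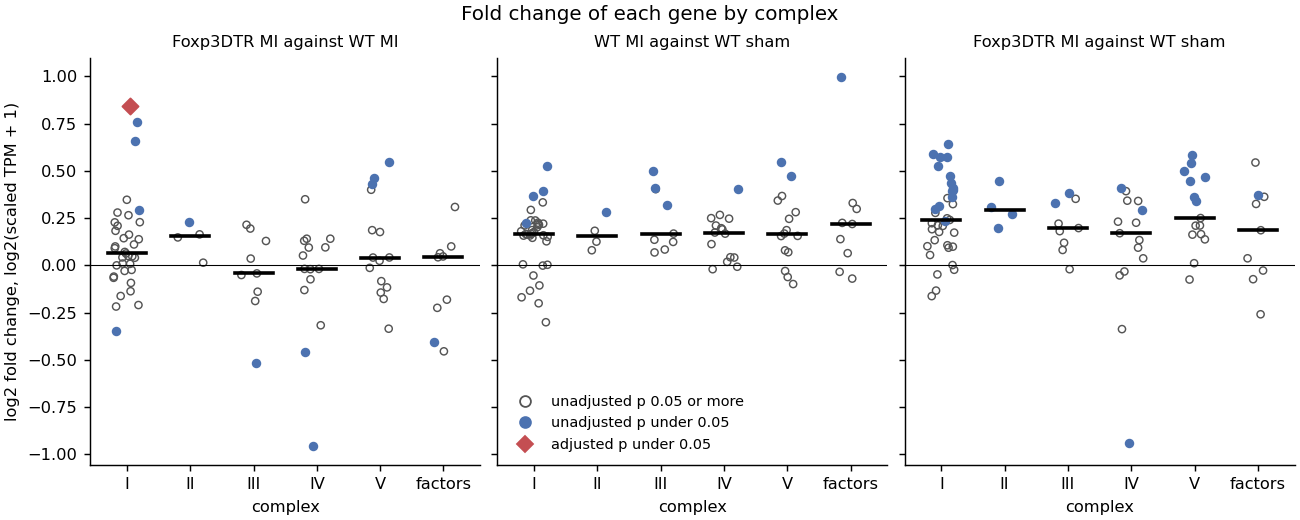
Log2 fold change of each member by complex in the 3 comparisons, without Cox4i2 and Cox6a2, with the median of each complex as a black bar. Filled circles had an unadjusted p under 0.05 and the diamond, Ndufa5 at 0.84, an adjusted p under 0.05. The medians lie between -0.04 and 0.07 in the left panel, apart from complex II at 0.16. In the other panels they lie between 0.15 and 0.30.

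The third comparison, Foxp3DTR MI against WT sham, mixes genotype, Treg depletion, toxin and surgery and shares its libraries with both others. None of the 90 members was called, where 0.541% of all tested genes were (0.386% higher). An unadjusted p under 0.05 was reached by 31 members that were higher (10.2% of all tested genes) and by 1 that was lower (8.41%). These 32 became 18 without sham replicate 2 or Foxp3DTR MI replicate 4, and 21 without sham replicate 1. Of all 12938 genes, 2403 reached it in either direction with all libraries. That count was 1438 without sham replicate 2, 2033 without Foxp3DTR MI replicate 4 and 2321 without sham replicate 1. Libraries did not overlap for 27 members that were higher (9.80%) and 1 that was lower (8.44%). Both counts of higher members hold Cox4i2, which was at 0 throughout WT sham and passed the filter only through libraries of the other groups. The median was 0.23 over the members and -0.01 over all genes, with 77 of the 90 positive against 49.0%. With Foxp3DTR MI replicate 4 left out the median was 0.16. Scaling moved this comparison less than the others, to 0.29 without it, where the median of all genes was 0.05.

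The subunits that carry the redox centres had positive values in this comparison. All 11 catalytic core genes of complexes I, II and III had positive values, from 0.05 (Ndufs7) to 0.57 (Ndufv1), and 8 of them had an unadjusted p under 0.05, beside the 31 of all 90 members and the 10.2% of all genes given above. All 4 genes of complex II reached that level, with log2 fold changes of 0.44 (Sdhc, SE 0.10, adjusted p = 0.0773), 0.31 (Sdhb), 0.27 (Sdhd) and 0.20 (Sdha). Sdhc stood at 117, 111, 105 and 127 scaled TPM in Foxp3DTR MI replicates 1 to 4 and at 90.0, 81.5 and 81.0 in sham replicates 1, 2 and 3. The groups did not overlap, and the WT MI libraries, at 93.9 to 109.8, lay above the sham range and overlapped that of Foxp3DTR MI. Ndufa5 had a log2 fold change of 0.64 (SE 0.14 and adjusted p = 0.0728). Cyc1 was at 0.33 (adjusted p = 0.124), and its libraries did not overlap.

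In complex V, Atp5g3 was at 281 ± 59.4 scaled TPM in Foxp3DTR MI (SD, n = 4) and 185 ± 18.1 in WT sham (SD, n = 3), a log2 fold change of 0.58 (adjusted p = 0.118). Atp5a1 and Atp5b were at 0.54 and 0.45 (adjusted p = 0.147 and 0.178). Their sham replicate 2 levels, 182 and 266, were well below those of the other sham libraries. On the lower side Cox6b2 had a value of -0.94 (adjusted p = 0.176), all 4 Foxp3DTR libraries being below the sham range of 12.1 to 19.9, and Atp5sl a value of -0.26 (adjusted p = 0.448). Cox4i2 was listed at 0 in all sham libraries and at 1.01, 1.85, 0.48 and 1.11 in Foxp3DTR MI. Its gene overlaps Bcl2l1 in the annotation.

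Transcript length moved with the levels of these genes. Over the 76 subunits at a mean of 20 scaled TPM or more, with GENCODE transcript lengths from 322 to 2900 bases, the deviation of a gene from its mean had a Spearman correlation with length of -0.62 in WT MI replicate 2, -0.36 in sham replicate 2, 0.31 in sham replicate 1 and 0.55 in Foxp3DTR MI replicate 3. Short subunit transcripts were thus relatively high in WT MI replicate 2 and low in Foxp3DTR MI replicate 3. Over all 12433 tested genes with a length the same values were -0.12, 0.02, 0.08 and 0.14. The log2 fold change between Foxp3DTR MI and WT MI had a Spearman correlation with length of 0.38 over the subunits and of 0.07 over all genes. The 38 shorter subunits had a median fold change of 0.03 and the 38 longer ones of 0.09. The median length was 746 bases. Of genes named above, Uqcrh and Ndufa6, which were lower, are short (474.5 and 382 bases). Atp5b, Atp5a1 and Ndufb2, which were higher, are long (1916, 2573 and 2413). Others went the other way. Ndufa5 (595 bases, 0.84) and Atp5g3 (718.5 bases, 0.43) are short and were higher, and Cox7a2l (1102.5 bases, -0.46) is long and was lower. Genes are not independent replicates, and all points of a library share its preparation and depth, so these correlations are descriptions. The part of length in the differences between groups was not tested.

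**Figure D5:**
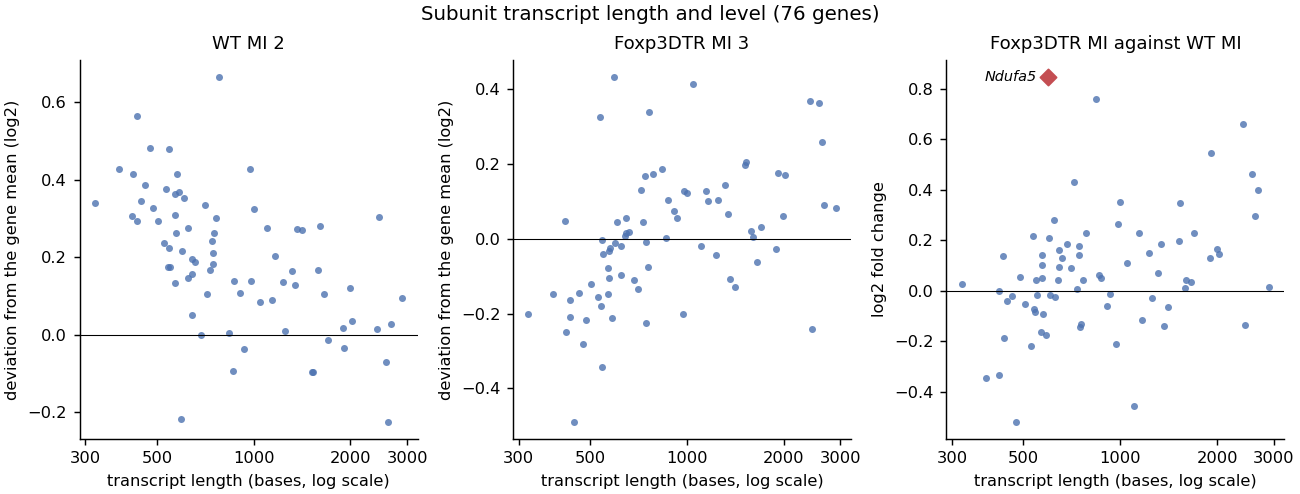
Transcript length (log axis) of 76 subunits against their deviation from the gene mean in WT MI replicate 2 and Foxp3DTR MI replicate 3, and against the log2 fold change between Foxp3DTR MI and WT MI. Points fall with length in the left panel (Spearman -0.62) and rise with it in the middle panel (0.55), and Ndufa5 (diamond) lies above all other subunits in the right panel at 595 bases.

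Genes around the chain were counted in the same fit. Of 48 tested assembly factors 1 was called in Foxp3DTR MI against WT MI, Coa5, a factor of complex IV assembly. Coa5 was at 106, 91.2 and 126 scaled TPM in sham replicates 1, 2 and 3, at 98.9, 112 and 107 in WT MI replicates 2, 3 and 4 and at 171, 167, 189 and 171 in Foxp3DTR MI replicates 1 to 4. The Foxp3DTR libraries were above all WT libraries, with log2 fold changes of 0.72 against WT MI (SE 0.11, adjusted p = 0.0248) and 0.71 against WT sham (SE 0.11, adjusted p = 0.0382). Both calls ended without any 1 Foxp3DTR library, the first also without any 1 WT MI library (adjusted p up to 0.0899) and the second without sham replicate 1 or 2 or any 1 WT MI library (up to 0.119).

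Of 17 tested genes of mitochondrial biogenesis none was called against WT MI and 1 against WT sham. This was Ppargc1b, a coactivator of respiratory genes, at 3.51, 3.36 and 3.90 scaled TPM in sham replicates 1, 2 and 3, 3.798, 5.34 and 5.74 in WT MI replicates 2, 3 and 4 and 10.3, 8.94, 7.91 and 8.18 in Foxp3DTR MI replicates 1 to 4. The Foxp3DTR libraries were again above all others, with log2 fold changes of 1.09 against sham (SE 0.18, adjusted p = 0.0392) and 0.73 against WT MI (SE 0.18, adjusted p = 0.0788). The call ended without sham replicate 1 or 2, WT MI replicate 3 or 4 or any 1 Foxp3DTR library, with adjusted p up to 0.131, and under other settings. Polrmt, the mitochondrial RNA polymerase, had a value of -0.47 against WT MI (adjusted p = 0.126).

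No other list held a call in any comparison. List medians of the log2 fold change against WT MI lay between -0.05 for biogenesis and 0.18 for cytochrome c, carriers and the ATPase inhibitor. The citrate cycle list (19 genes) was led by Idh3a, a subunit of isocitrate dehydrogenase, with a log2 fold change of 0.68 against WT MI (adjusted p = 0.0516), followed by Suclg1 at 0.45. Of 10 genes for cytochrome c, carriers and the ATPase inhibitor, Atpif1 (0.60) and Cycs (0.46) were lowest in p. Coq7 (0.70) and Coq3 (0.42) led the 12 genes of coenzyme Q synthesis. Timm44 (-0.27) and Tomm20 (-0.30) led the 24 import genes. The subunits outside the naming rule, Usmg5 and 2010107E04Rik, were at 0.17 and -0.05. Against WT sham, infarction in WT mice gave no call in any list, and Sdhaf1, an assembly factor of complex II, had a log2 fold change of 0.71 there (adjusted p = 0.960).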

How the data were processed

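Ly6Chigh splenic monocytes were profiled by single-end RNA sequencing with reads of 50 bp. Per the submitters' processing notes, reads were handled with CASAVA 1.4 and cutadapt 1.1, aligned to mm10 with STAR 2.5 and quantified with StringTie 1.3.0. The paper tested BEDTools counts with DESeq2, which the tables do not hold. The authors deposited per library the coverage (a signal), the FPKM and the TPM of each gene, in which TPM was divided by transcript length and library total, so that a few abundant RNAs move all others. The sources used here do not give how reads shared with near copies (many of these genes have pseudogenes) or between strands were counted, and 14 members overlap another gene, so single genes are uncertain to that extent. Depth was inferred from coverage over FPKM, which is constant within 1% for about 85% of entries; no counting interval is given, since the tables hold no counts.

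TPM was summed by symbol, scaled by median-of-ratios size factors and, where 3 or more libraries reached 1 TPM, transformed as log2(TPM + 1). These values were fitted with limma 3.58.1 (R 4.3.3), with 3 group means and a variance trend, two-sided, with Benjamini-Hochberg adjustment over 12938 genes and a threshold of 0.05. The pseudocount of 1 understates the change of low genes. The test was tested on simulated data of 12938 genes for Foxp3DTR MI against WT MI. It recovered 83 of 100 genes changed by 1 on the log2 scale and 99 of 100 changed by 2, with 7 false calls. The changed genes were drawn from those with a mean above 5 on the log2 scale. Noise was normal and independent between genes, without shifts shared by a library, which the real libraries show. Recovery of smaller changes or of lower genes was not measured. Groups came from the sample titles. The members, gene lists and the rule for named genes were chosen with earlier results of these data known. Named are the members called in a comparison (with none, the 2 of lowest p in each direction), the 2 most abundant of each complex, Sdha to Sdhd, Cyc1, the isoform families and the called or, otherwise, 2 lowest-p genes of each list; other names were chosen after their values were seen. Alternatives were unscaled TPM, FPKM, quantile normalization, other pseudocounts (0.1 or 5) or filters (none or 5 TPM), only 2 groups in the fit, no variance trend, array weights, a replicate block and the removal of each library.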

Additional observations from a re-analysis of the deposited data

Results flagged for a closer look

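In the group of 4 Foxp3DTR MI libraries, 4 of 40 quantities tested had 1 library far from the others by Dixon's ratio. The ratio is the gap to the nearest library over the range of the group, and the limit was the 95% critical value for 4 samples. Chance gives about 1 in 20 for independent quantities. The 40 quantities share libraries and scaling factors and are not independent, so the number flagged cannot be set against that share. Replicate 4 was the high library each time, on scaled values. The ratio was 0.883 for the summed level of complex I (4323 scaled TPM, nearest 3641), 0.900 for that of complex IV (4018, nearest 3171), 0.883 for Atp5g1 (50.7, nearest 31.4) and 0.925 for Atp5g2 (81.2, nearest 51.6). As deposited, replicate 4 lay within its group for complex I (4090, with 3895 to 4137 in the others). It stayed highest for complex IV (3801, nearest 3609), Atp5g1 (48.0, nearest 35.9) and Atp5g2 (76.8, nearest 58.6). The ratio was not given for deposited values.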

How the results depend on the processing

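No direction of a called gene was reversed by an alternative. The number of members called in Foxp3DTR MI against WT MI, 1 as reported, was 7 without scaling (Ndufa5, Atp5b, Atp5g3, Cyc1, Ndufa12, Ndufb2 and Sdhb), 3 in a fit of the 2 groups alone (Ndufa5, Atp5a1, Atp5b), 3 with array weights (Ndufa5, Atp5b, Ndufa12) and 0 without a filter, where Ndufa5 had an adjusted p of 0.0548 among more genes tested. Leaving out single libraries gave 0 to 4, with 4 (Ndufa5, Atp5a1, Atp5b, Ndufa12) without sham replicate 2 and 0 without any 1 library of the compared groups. Calls over all 12938 genes rose as well, to 527 without scaling, 578 in the fit of 2 groups, 398 with array weights and 427 without sham replicate 2. In Foxp3DTR MI against WT sham the number was 0, and 0 to 2 on leaving out libraries, with 2 (Ndufa5, Ndufs4) without sham replicate 3. Calls in WT MI against WT sham were 0 under every alternative. The median log2 fold change of the members without scaling was 0.28 in Foxp3DTR MI against WT MI and -0.012 in WT MI against WT sham. Over all genes the count called in Foxp3DTR MI against WT MI, 145, ranged from 0 (without WT MI replicate 2) to 578 (2 groups alone), and in Foxp3DTR MI against WT sham, 70, from 3 (without sham replicate 1) to 623 (without sham replicate 3). With the replicate number as a block, the members called in Foxp3DTR MI against WT MI numbered 0 (Ndufa5, adjusted p = 0.0872) and all genes called 81. Deviations of same-numbered libraries correlated between -0.19 and 0.19 over 8 pairs, with 1 over 0.1, so the numbers were not taken as pairs. The call of Coa5 against WT sham was also lost without a filter, in the fit of 2 groups, without the variance trend and with the replicate block, 13 of 21 alternatives in all, and that of Ppargc1b with a pseudocount of 0.1, without a filter, in the fit of 2 groups and with the block, 12 of 21 in all. Coa5 against WT MI was also lost without a filter, 8 of 21 in all. The causes of these changes were not tested. Depth is known only by inference, and 3 or 4 libraries per group limit all comparisons.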
